A study of Homo sapiens with 4 samples.

Results

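Ribosome biogenesis and nucleolar factors were examined in TU-177, an established laryngeal squamous cell carcinoma (LSCC) cell line. A list of 38 genes by symbol defined the group. It covers the box C/D and box H/ACA small nucleolar ribonucleoproteins (snoRNPs), RNA polymerase I transcription, assembly of the small and the large ribosomal subunit, and abundant multifunctional nucleolar proteins. Of these, 37 were found among the 28729 genes listed in the deposited table, and BOP1 was not analysed here. All 37 passed the minimum mean of 1 FPKM (fragments per kilobase of exon, relative to all fragments mapped in that library) that left 12645 genes for testing.

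RNA-seq was performed on 4 libraries of TU-177 cells, 2 with a negative control (NC) and 2 with knockdown of SKA3 (SKA3-KD). SKA3 is a subunit of the spindle and kinetochore-associated complex, and the study sequenced these cells to find genes whose expression follows SKA3. According to the labels, cells of both groups received a lentivirus carrying an shRNA, against SKA3 or negative control, were selected with puromycin from 48 h after transduction, and the resistant cells were harvested. The labels do not say which hairpin was used, or whether the 2 libraries of a group came from separate transductions. The p-values therefore measure the spread between these libraries, which may be technical.

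A ribosome is built in the nucleolus. RNA polymerase I transcribes the long precursor of ribosomal RNA (rRNA), box C/D snoRNPs methylate it and box H/ACA snoRNPs convert uridines to pseudouridine, and large assembly complexes then cut and fold it onto ribosomal proteins to give the small and large subunits. Growing and tumor cells run this pathway at a high rate, and MYC is a known activator of many of its genes.

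The sequences just upstream of the transcription start sites are shown for 3 members, chosen because they carry different promoter motifs and represent a gene that rose (LYAR), a gene that fell (NHP2) and a gene with the MYC-type E-box (NOP10). They are the 250 bases before the start in RefSeq, build GRCh38.p14, on the strand of the gene. All 3 genes lie on the minus strand, LYAR at chr4:4290155-4290404, NHP2 at chr5:178153886-178154135 and NOP10 at chr15:34343137-34343386. Capitals mark the motifs that were searched for, on either strand.
LYAR: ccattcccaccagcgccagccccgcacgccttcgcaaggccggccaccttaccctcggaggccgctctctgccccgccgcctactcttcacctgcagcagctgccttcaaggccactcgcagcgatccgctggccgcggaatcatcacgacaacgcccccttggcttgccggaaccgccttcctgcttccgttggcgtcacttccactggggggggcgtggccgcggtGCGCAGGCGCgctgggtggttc
NHP2: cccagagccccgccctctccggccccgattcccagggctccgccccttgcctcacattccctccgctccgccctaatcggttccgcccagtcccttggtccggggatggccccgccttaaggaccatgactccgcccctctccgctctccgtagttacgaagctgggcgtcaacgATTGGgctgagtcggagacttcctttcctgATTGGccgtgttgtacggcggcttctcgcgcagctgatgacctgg
NOP10: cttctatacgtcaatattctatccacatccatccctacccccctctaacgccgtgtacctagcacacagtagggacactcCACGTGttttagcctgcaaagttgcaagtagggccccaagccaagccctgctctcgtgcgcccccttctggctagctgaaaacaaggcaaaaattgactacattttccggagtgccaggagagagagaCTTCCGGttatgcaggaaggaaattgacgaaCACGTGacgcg
The capitals in LYAR are a match to the palindromic NRF1 motif, in which the fifth base was left free, read on the opposite strand. In NHP2 they are 2 copies of CCAAT, the motif of NF-Y, also on the opposite strand. In NOP10 they are 2 copies of CACGTG, the E-box, which reads the same on both strands, and between them 1 copy of CCGGAAG, an ETS motif, on the opposite strand. None of these matches overlapped another in the sequences shown.

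Promoter sequence was matched for 33 of the 37 members, and not for NOLC1, NOP58, RRP12 and RRP1B. The E-box CACGTG was present in the upstream sequences of 3 of the 33 (NOP10, UTP14A and UTP20), or 9.09%, against 9.10% of the promoters of 8943 genes tested and 6.49% of all 27305 promoters. The NRF1 motif was present in 8 members, or 24.2%, against 11.3% of the genes tested and 5.53% of all promoters. These 8 were DKC1, FBL, LYAR, MYBBP1A, NOB1, NPM1, UTP20 and WDR43. CCGGAAG was present in 9 members, or 27.3%, against 17.3% of the genes tested and 8.82% of all promoters. CCAAT was also present in 9, against 35.7% and 33.0%. These shares are descriptions of sequence, and a match is not evidence of binding.

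The knockdown was visible in the targeted gene. SKA3 measured 9.40 and 9.64 FPKM in NC and 3.77 and 4.12 FPKM in SKA3-KD. The log2 fold change, taken on FPKM + 1, was -1.09 (SE 0.0749, adjusted p = 0.00806, limma). Depth, estimated from the steps between low FPKM values, was 9013671 to 11964616 reads per library. Of the 10 squamous epithelial markers checked, 4 had a mean of at least 1 FPKM (KRT17, EPCAM, DSP and PERP), while KRT5 and KRT14, the keratins of basal squamous cells, were at 0 in 3 of 4 libraries each and at most 0.103 FPKM. The summed level of the 10 was 185 to 190 FPKM in NC and 120 to 127 in SKA3-KD, with PERP at 72.7 and 66.1 FPKM in NC and 20.5 and 18.6 in SKA3-KD, KRT17 at 45.6 and 49.1 against 29.4 and 35.7, and DSP at 65.8 to 68.7 and EPCAM at 2.73 to 2.95 over all 4 libraries. The 8 fibroblast markers summed to 15.4 to 15.8 FPKM in NC and 8.89 to 9.62 in SKA3-KD, with COL1A2, LUM, THY1 and POSTN at or near 0. Most of that difference was DCN, at 8.40 and 8.36 FPKM in NC and 2.48 and 2.35 in SKA3-KD, while PDGFRB was at 2.88 and 2.46 FPKM in NC and 3.19 and 4.13 in SKA3-KD. Immune markers (6 of 8 found) summed to 0.798 to 1.38 FPKM, with LYZ at 0 and PTPRC at or near 0, and endothelial markers (4 of 6 found) summed to 19.3 to 25.3 FPKM, nearly all of it ENG. The part of these differences in the results for the nucleolar genes was not tested.

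Levels of the nucleolar genes spanned a wide range (the plot of FPKM by gene). NPM1, which encodes nucleophosmin, was the highest with 479 and 435 FPKM in NC and 506 and 471 FPKM in SKA3-KD. NCL (nucleolin) followed with 128 and 121 FPKM in NC and 142 and 134 in SKA3-KD. FBL, the methyltransferase fibrillarin, measured 109 and 106 FPKM in NC and 109 and 108 in SKA3-KD. NOP10 and DDX21 also exceeded 100 FPKM in every library, and their values interleaved with those of FBL. The lowest were UTP15, with a mean of 5.76 FPKM over the 4 libraries, and WDR12, with 5.56. The estimated number of reads behind a value ran from 268 to 21961, so none of the members was measured on few reads. For NPM1 the annotation holds 45 named pseudogenes, so its level is uncertain to the extent that reads were shared with them.

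**Figure D1:**
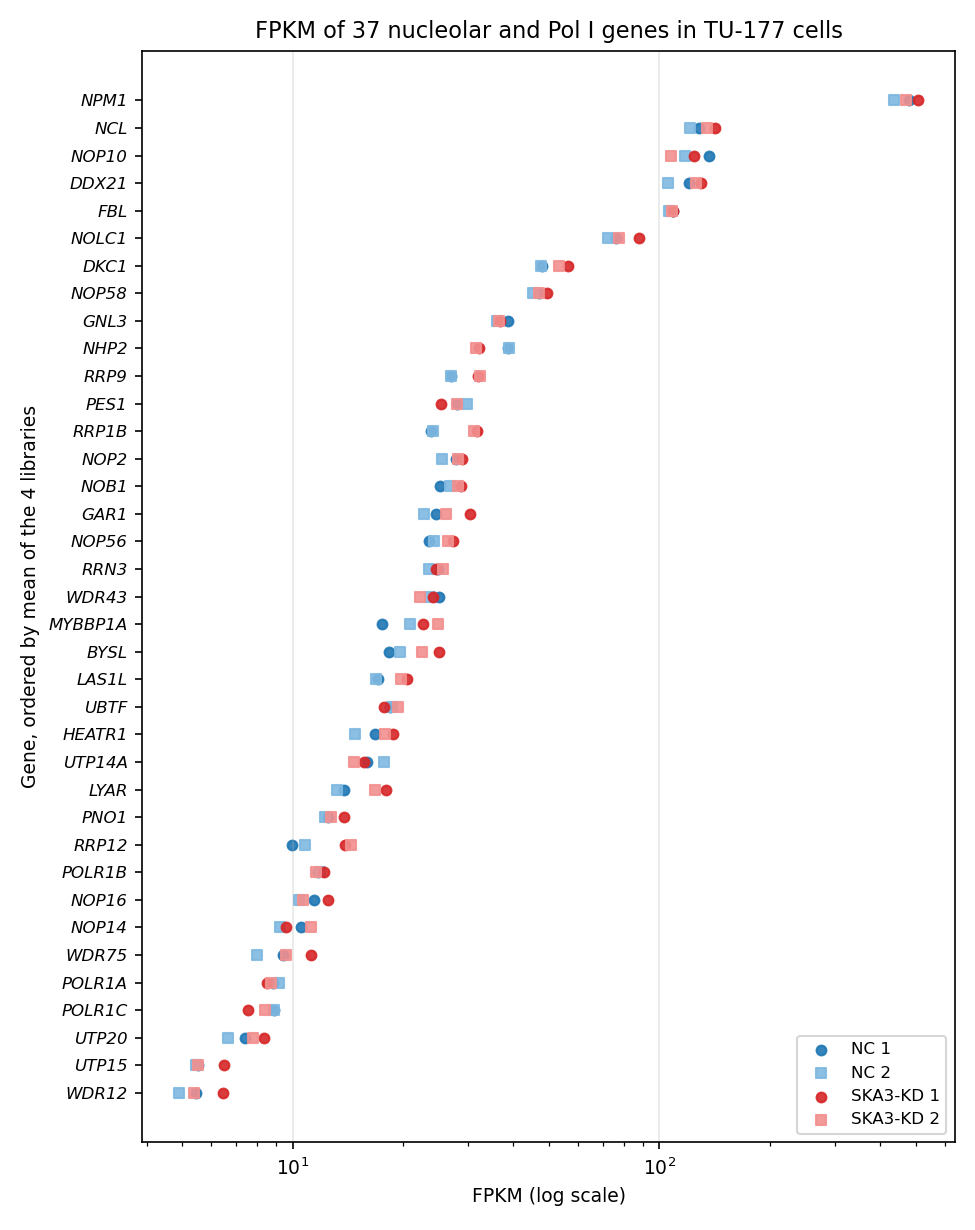
FPKM (log axis) of each of the 37 genes in the 2 NC libraries (blue) and the 2 SKA3-KD libraries (red), ordered by the mean of the 4 libraries. NPM1 lies between 435 and 506 FPKM, above all other members, and the libraries of the 2 groups lie close to each other for most genes.

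Most of the members did not pass the test between SKA3-KD and NC. Limma on log2(FPKM + 1), with adjustment by Benjamini-Hochberg over all 12645 genes tested and a threshold of 0.05, called 4 of 37, or 10.8%, against 12.3% of all genes tested. RRP12, RRP1B and LYAR rose in SKA3-KD (3 members, against 6.16% of all genes) and NHP2 fell (1 member, against 6.11%). The share of members called was thus near that of all genes at this filter. At a minimum of 5 FPKM, which all 37 members passed, 16.2% of them were higher and 2.7% lower. The shares of the 7303 genes then tested were 13.6% higher and 12.1% lower. At an unadjusted p below 0.05, 10 members were higher and 1 was lower, where 16.2% of all genes were higher and 15.1% lower. Limma voom on the estimated reads called 7 members higher, against 13.8% of the genes it tested, and 1 lower, against 12.4%.

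The members' fold changes were small and mostly positive. The log2 fold change was positive in 28 of 37 members, or 75.7%, against 51.6% of all genes tested. The median over the members was 0.11, against 0.01 over all genes tested. Within groups, SKA3-KD 1 also exceeded SKA3-KD 2 in 28 of 37 members, and NC 1 exceeded NC 2 in 24. Counts of members in the same direction are therefore not counts of independent genes. Both SKA3-KD libraries lay above both NC libraries in 21 members, or 56.8%, against 32.3% of all genes, and below both in 4 members, against 29.2% of all genes. No test was made for the list as a whole. With 2 libraries against 2, an exact permutation test of any single gene cannot give a two-sided p below 0.333. In bulk RNA, a change in the share of cells that express a gene and a change in the RNA per cell cannot be told apart.

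**Figure D2:**
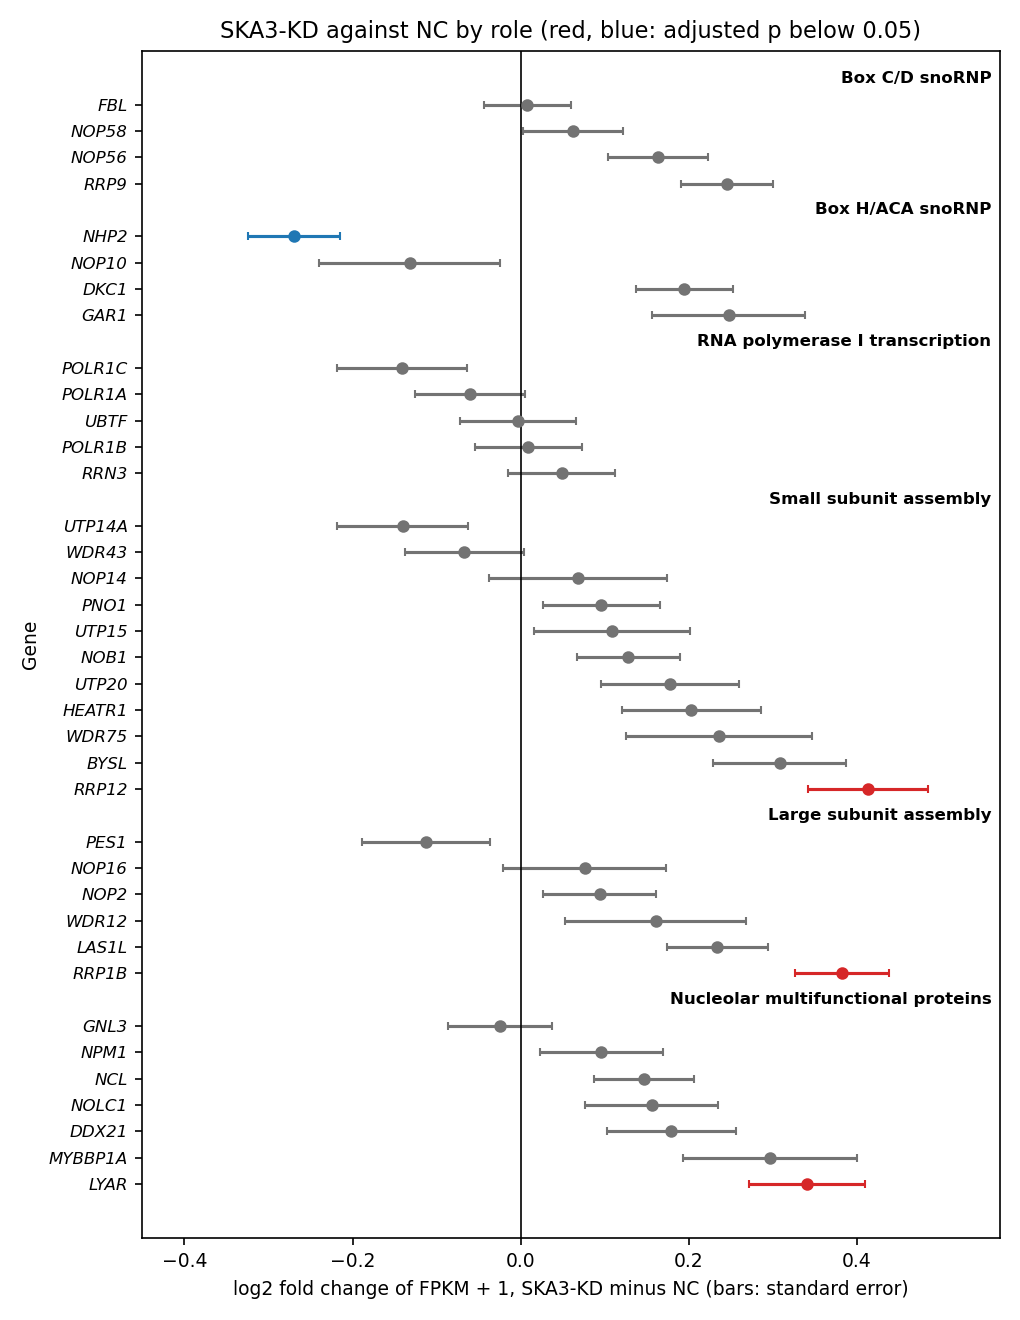
Log2 fold change of FPKM + 1, SKA3-KD minus NC, for each of the 37 genes by role, with standard errors as bars (2 libraries per group). RRP12, RRP1B and LYAR (red) were higher and NHP2 (blue) lower at an adjusted p below 0.05, and the 33 genes in grey did not pass the test.

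Among the 5 genes of RNA polymerase I transcription, limma called none, none had an unadjusted p below 0.05, and limma voom also called none. Their log2 fold changes ran from -0.14 to 0.05 with a median of -0.00. POLR1A and POLR1B encode the 2 largest subunits of the enzyme, POLR1C a subunit it shares with RNA polymerase III, UBTF the factor that binds the rRNA gene promoter and RRN3 the factor that brings the polymerase to it. POLR1C had the largest difference, with 8.89 and 8.90 FPKM in NC and 7.54 and 8.43 FPKM in SKA3-KD (log2 fold change -0.14, adjusted p = 0.282, limma). Its SKA3-KD values were below both NC values but differed more from each other than the NC values did. UBTF measured 18.5 and 18.7 FPKM in NC and 17.7 and 19.4 FPKM in SKA3-KD, so that the NC values lay between the SKA3-KD values. POLR1A, at 8.85 and 9.21 FPKM in NC and 8.51 and 8.72 in SKA3-KD, differed by -0.06 on the log2 scale (adjusted p = 0.578).

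The 4 box C/D snoRNP genes all had positive log2 fold changes, with a median of 0.11, and none was called. NOP56 and NOP58 encode the paired scaffold proteins of the particle, FBL its methyltransferase and RRP9 the protein specific to the U3 particle, which guides early cleavage of the rRNA precursor. RRP9 came closest to the threshold, with 27.0 and 27.0 FPKM in NC and 31.9 and 32.5 FPKM in SKA3-KD (log2 fold change 0.25, SE 0.0552, adjusted p = 0.0513, limma). Its groups did not overlap, and replicates lay close together in both. NOP56 measured 23.6 and 24.3 FPKM in NC and 27.4 and 26.4 FPKM in SKA3-KD (0.16 on the log2 scale, adjusted p = 0.140). NOP58 differed by 0.06 on the log2 scale (adjusted p = 0.519). FBL, the most abundant of the 4, differed by 0.01 (adjusted p = 0.935), which was within the spread between its replicates. At an unadjusted p below 0.05, 2 of the 4 were higher and 0 lower, where 16.2% of all genes were higher and 15.1% lower. Limma voom called none of the 4. RRP9 passed in 3 of the 9 alternatives with all 4 libraries, among them a minimum of 5 FPKM (adjusted p = 0.0302) and robust eBayes (0.0470).

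The 4 genes of the box H/ACA snoRNP did not move together, although their products form one particle. NHP2 encodes a core RNA-binding protein of the particle (ENSG00000145912, on chromosome 5). It measured 38.6 and 38.8 FPKM in NC and 32.2 and 31.6 FPKM in SKA3-KD. Both SKA3-KD libraries were below both NC libraries, and the replicates of each group differed by less than 1 FPKM. NHP2 fell by 0.27 on the log2 scale (SE 0.0546, adjusted p = 0.0410, limma), or from a mean of 38.7 ± 0.150 FPKM in NC to 31.9 ± 0.420 FPKM in SKA3-KD (SD, n = 2 each). Its exons overlap those of RMND5B on the opposite strand, and the sources used here do not state whether strand was used in counting. NHP2 is 1 of 15 members with an opposite-strand overlap, all under the same limit. The others are POLR1C, UBTF, UTP14A, UTP15, HEATR1, NOP14, RRP12, PNO1, NOB1, PES1, WDR12, NOP16, GNL3 and MYBBP1A.

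Limma on log2(FPKM + 1) called none of the other three H/ACA genes, and limma voom called DKC1 higher (adjusted p = 0.0441). DKC1, the pseudouridine synthase dyskerin, measured 48.0 and 47.4 FPKM in NC and 56.2 and 53.3 FPKM in SKA3-KD (log2 fold change 0.19, adjusted p = 0.0929). GAR1, a protein bound to dyskerin, measured 24.6 and 22.7 FPKM in NC and 30.4 and 26.3 FPKM in SKA3-KD (0.25, adjusted p = 0.143). In both genes the SKA3-KD values lay above the NC values, the opposite side from NHP2. NOP10, the smallest protein of the particle, measured 137 and 117 FPKM in NC and 124 and 107 FPKM in SKA3-KD (-0.13, adjusted p = 0.456), and its groups overlapped. The NOP10 promoter printed above holds 2 E-boxes and that of NHP2 none.

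Of the 11 genes of small subunit assembly, limma on log2(FPKM + 1) called RRP12. RRP12, which acts in late maturation and nuclear export of pre-ribosomal particles (ENSG00000052749, on chromosome 10), had the highest log2 fold change of the members. It measured 9.94 and 10.8 FPKM in NC and 13.9 and 14.4 FPKM in SKA3-KD. The groups did not overlap, and the gap between them was wider than the difference between replicates in either. RRP12 rose by 0.41 in log2(FPKM + 1) (SE 0.0717, adjusted p = 0.0307, limma). Its mean FPKM in SKA3-KD was 1.36 times that in NC. The estimated reads behind these values were 834 to 1449 per library. AL355490.2 overlaps its exons on the opposite strand.

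The other small subunit genes had log2 fold changes from -0.14 to 0.31. In 8 of the 11 genes, RRP12 included, both SKA3-KD libraries exceeded both NC libraries, against 32.3% of all genes tested. BYSL (bystin), which acts on the pre-40S particle, measured 18.3 and 19.6 FPKM in NC and 25.0 and 22.5 FPKM in SKA3-KD (log2 fold change 0.31, adjusted p = 0.0683). BYSL passed in 2 of the 9 alternatives with all 4 libraries, limma voom (adjusted p = 0.0190) and a minimum of 5 FPKM (0.0323). WDR75, a subunit of the UTP-A complex that binds the nascent rRNA precursor, measured 9.40 and 8.01 FPKM in NC and 11.2 and 9.62 FPKM in SKA3-KD (0.24, adjusted p = 0.218). The lower SKA3-KD library was close to the higher NC library in WDR75, unlike in BYSL. HEATR1 and UTP20, large scaffold proteins of the small subunit processome, had log2 fold changes of 0.20 and 0.18 (adjusted p = 0.170 and 0.214). NOB1, the endonuclease that makes the final cut of 18S rRNA, and its partner PNO1 had log2 fold changes of 0.13 and 0.10, and UTP15, of the same complex as WDR75, one of 0.11. NOP14 differed by 0.07 with overlapping groups. UTP14A, a processome factor, and WDR43, another subunit of UTP-A, were the negative ones, at -0.14 (adjusted p = 0.287) and -0.07 (adjusted p = 0.566). The median of the 11 was 0.13.

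Among the 6 measured genes of large subunit assembly, RRP1B was called. RRP1B, a nucleolar protein related to the yeast assembly factor Rrp1 (ENSG00000160208, on chromosome 21), measured 23.9 and 24.1 FPKM in NC and 31.9 and 31.3 FPKM in SKA3-KD. The replicates of each group differed by less than 1 FPKM and the groups did not overlap. RRP1B rose by 0.38 in log2(FPKM + 1) (SE 0.0559, adjusted p = 0.0224, limma) and had the lowest adjusted p of the members. Its mean FPKM in SKA3-KD was 1.32 times that in NC. The estimated reads behind it were 1251 to 2123 per library, and no annotated gene overlaps its exons.

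LAS1L, the endonuclease that cuts the second internal spacer of the rRNA precursor, was the next of the large subunit genes, with 17.1 and 16.9 FPKM in NC and 20.5 and 19.8 FPKM in SKA3-KD (log2 fold change 0.23, adjusted p = 0.0674). LAS1L passed in limma voom (0.0243) and at a minimum of 5 FPKM (0.0438). WDR12 and PES1 are partners in the complex that also holds BOP1. WDR12 measured 5.47 and 4.91 FPKM in NC and 6.48 and 5.39 FPKM in SKA3-KD (0.16, adjusted p = 0.365), while PES1 measured 28.0 and 29.8 FPKM in NC and 25.3 and 28.1 FPKM in SKA3-KD (-0.11, adjusted p = 0.372). The groups overlapped in both genes. NOP2, an rRNA methyltransferase, and NOP16 had log2 fold changes of 0.09 and 0.08. The median of the 6 was 0.13.

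The 7 multifunctional nucleolar proteins had a median log2 fold change of 0.16, and LYAR was called. LYAR, a zinc finger protein that acts in rRNA synthesis and processing and in cell growth (ENSG00000145220, on chromosome 4), measured 13.8 and 13.2 FPKM in NC and 18.0 and 16.8 FPKM in SKA3-KD. The groups did not overlap. LYAR rose by 0.34 in log2(FPKM + 1) (SE 0.0688, adjusted p = 0.0408, limma). Its mean FPKM in SKA3-KD was 1.29 times that in NC. The estimated reads behind it were 276 to 459 per library, fewer than behind the other three called members.

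MYBBP1A, a nucleolar protein that binds MYB and takes part in rRNA processing, measured 17.5 and 20.9 FPKM in NC and 22.7 and 24.9 FPKM in SKA3-KD (log2 fold change 0.30, adjusted p = 0.130). MYBBP1A was called by limma voom (adjusted p = 0.00991). Its NC libraries differed by 0.24 on the log2 scale, the largest difference between NC replicates among the members. For the most abundant genes the differences were smaller. DDX21, an RNA helicase, measured 120 and 106 FPKM in NC and 130 and 126 FPKM in SKA3-KD (0.18, adjusted p = 0.188). NCL, at the levels given above, differed by 0.15 on the log2 scale (adjusted p = 0.172), NPM1 by 0.10 (adjusted p = 0.425) and NOLC1, a chaperone of snoRNPs, by 0.16 (0.252 after adjustment). The groups did not overlap in DDX21, NCL and NOLC1, and overlapped in NPM1. GNL3 (nucleostemin) differed by -0.02 (adjusted p = 0.822).

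**Figure D3:**
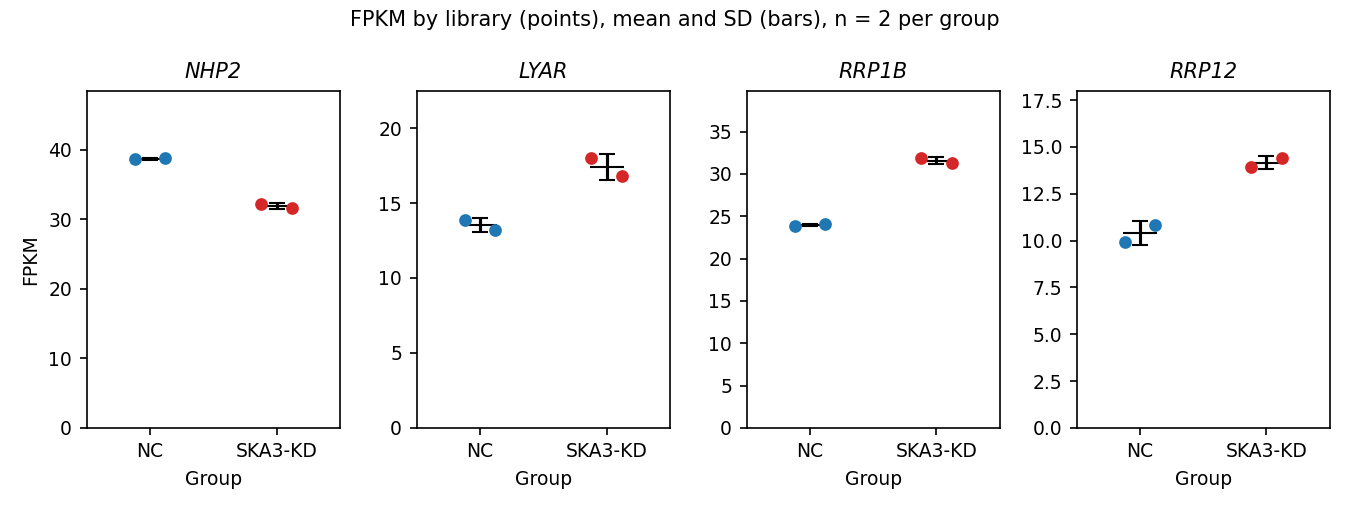
FPKM (axes from 0) of the 4 called members in each library (points), with the mean and SD of each group (bars, n = 2). NHP2 is lower in both SKA3-KD libraries (32.2 and 31.6) than in both NC libraries (38.6 and 38.8), and LYAR, RRP1B and RRP12 are higher.

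The log2 fold changes of these 4 genes stayed similar when any one of the 4 libraries was left out, at 0.36 to 0.47 for RRP12, 0.37 to 0.40 for RRP1B, 0.29 to 0.39 for LYAR and -0.28 to -0.26 for NHP2. With 3 libraries limma called none of the 37 members (adjusted p of 0.0755 to 0.195 for the 4), with 5 to 9 higher and 1 lower at an unadjusted p below 0.05, where 10.8% to 14.2% of all genes were higher and 11.6% to 12.3% lower. Of all 12645 genes it called 0 without NC 1 or without NC 2, 66 without SKA3-KD 1 and 181 without SKA3-KD 2.

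The position of the single libraries showed how far the members shared a direction. Relative to the NC mean of each gene on the log2 scale, the median over the 37 members was 0.18 for SKA3-KD 1 and 0.080 for SKA3-KD 2. For NC 1 and NC 2 it was 0.017 and -0.017. These mirror each other because the NC mean is the reference, so they understate the spread to which the SKA3-KD medians should be compared. The corresponding medians over all genes tested were 0.01 in both SKA3-KD libraries. Both SKA3-KD libraries were thus above both NC libraries in the median of the members, and SKA3-KD 1 lay farther from NC than SKA3-KD 2. Between replicates, SKA3-KD 1 exceeded SKA3-KD 2 in 28 of 37 members and NC 1 exceeded NC 2 in 24. The median difference between SKA3-KD replicates was 0.065 over the members, against 0.0026 over all genes tested. For the NC replicates it was 0.035 over the members, against 0.0087. By role, the medians in SKA3-KD 1 and 2 were 0.21 and 0.13 for small subunit assembly, 0.22 and 0.06 for large subunit assembly, 0.20 and 0.11 for the multifunctional proteins and 0.14 and 0.08 for box C/D. The H/ACA genes split, at 0.10 in SKA3-KD 1 and -0.04 in SKA3-KD 2, and the RNA polymerase I genes were at -0.06 and -0.02.

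**Figure D4:**
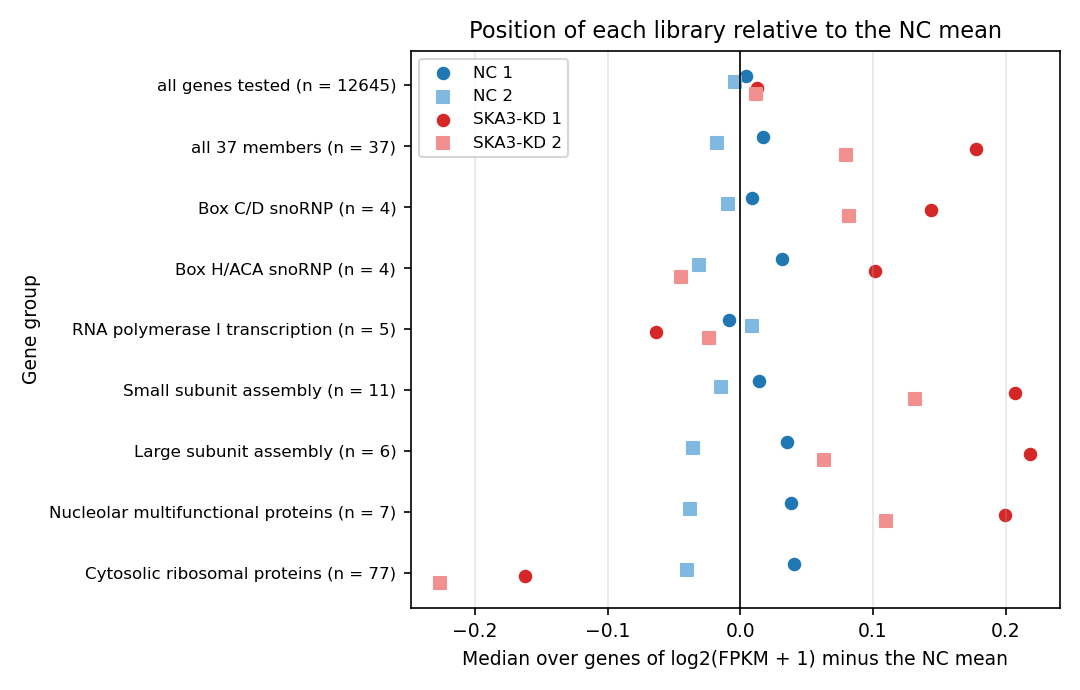
Median, over the genes of each group, of log2(FPKM + 1) minus the NC mean of the gene, for each of the 4 libraries. Over all 37 members the SKA3-KD libraries are at 0.18 and 0.08, over all genes tested both are at 0.01, and over the cytosolic ribosomal proteins they are at -0.16 and -0.23.

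The remaining genes of the pathway were taken from 5 further lists, 139 genes in all, of which 135 were tested. Limma called 3 lower and 8 higher, or 8.15%, against 12.3% of all genes. Leaving out any one library or the filter gave 0 calls among the 135, and eBayes without a trend gave FCF1 lower and TSR2 higher. The log2 fold change was positive in 75, or 55.6%, against 51.6% of all genes, and the median was 0.03. The share of positive values was therefore closer to that of all genes than it was among the 37 members. Members and lists were chosen with earlier results of these data known, so this is a description only.

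Other small subunit factors (44 tested) had a median of 0.04, with 1 lower and 2 higher. The lower one, FCF1, a nuclease-like processome protein, measured 31.9 and 30.2 FPKM in NC and 20.1 and 18.7 FPKM in SKA3-KD (log2 fold change -0.65, adjusted p = 0.0129, limma), a larger change than that of any of the 37 members. TSR2, which brings the ribosomal protein eS26 to the particle, measured 44.2 and 45.8 FPKM in NC and 60.3 and 61.6 FPKM in SKA3-KD (0.43, adjusted p = 0.0182). TSR3, which modifies 18S rRNA, measured 53.6 and 51.9 FPKM in NC and 66.1 and 68.8 FPKM in SKA3-KD (0.35, adjusted p = 0.0270). The groups did not overlap in any of the 3.

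Other large subunit factors (53 tested) had a median of 0.04, with 1 lower and 3 higher. NOP53 fell from 36.6 and 38.3 FPKM in NC to 28.5 and 29.2 FPKM in SKA3-KD (log2 fold change -0.37, adjusted p = 0.0265, limma). NOP53 recruits the RNA exosome to the pre-60S particle. NOC2L rose from 43.9 and 47.9 FPKM to 60.6 and 60.9 FPKM (0.40, adjusted p = 0.0272), and EBNA1BP2, a pre-60S assembly factor, from 31.2 and 29.9 FPKM to 39.3 and 38.9 FPKM (0.34, adjusted p = 0.0282).

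Of 15 other subunits and factors of RNA polymerase I (median -0.01), 3 were lower and 1 higher at an unadjusted p below 0.05. The shares of all genes were 15.1% lower and 16.2% higher. Limma voom called 1 in each direction, against 12.4% lower and 13.8% higher of the genes it tested. After adjustment, limma called 0 lower and 1 higher, against 6.11% and 6.16% of all genes. The higher gene was POLR2E, a subunit that all 3 nuclear RNA polymerases share, at 33.3 and 39.6 FPKM in NC and 49.2 and 51.3 FPKM in SKA3-KD (log2 fold change 0.46, adjusted p = 0.0442). Among 9 snoRNP assembly factors limma called 0 (median -0.02). At an unadjusted p below 0.05, and also in limma voom, 1 was higher and 1 lower, beside the shares of all genes just given. Of 14 genes of the RNA exosome, which trims rRNA precursors, 1 was lower and 2 were higher (median 0.05). EXOSC1, a cap subunit, fell from 10.9 and 10.4 FPKM to 7.87 and 8.01 FPKM (-0.38, adjusted p = 0.0292). MPHOSPH6, a cofactor, rose from 8.74 and 8.76 FPKM to 11.2 and 11.8 FPKM (0.36, adjusted p = 0.0337), and EXOSC10, a nuclease subunit, from 9.27 and 8.91 FPKM to 12.3 and 11.3 FPKM (0.34, adjusted p = 0.0468). The calls within the exosome thus went in both directions.

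The cytosolic ribosomal proteins, which the assembly factors place on rRNA, were on the other side of zero. Of 77 tested, limma called 10 lower, or 13.0%, against 6.11% of all genes. It called 0 higher, against 6.16% of all genes. At an unadjusted p below 0.05, where 15.1% of all genes were lower, 47 of the ribosomal proteins were lower and 0 higher. In limma voom, where 12.4% of the genes it tested were lower, 43 of the ribosomal proteins were lower and 0 higher. Leaving out any one library, the filter or the trend gave 0 calls among them. The log2 fold change was negative in 75 of 77 and positive in 2, where 51.6% of all genes were positive. The median was -0.19, where the 37 nucleolar members had a median of 0.11. With quantile normalization the median of the ribosomal proteins was -0.13 and 67 of 77 were negative, and that of the members was 0.12 with 28 of 37 positive. RPS27, an abundant protein of the small subunit, fell from 1200 and 1059 FPKM in NC to 836 and 691 FPKM in SKA3-KD (-0.57, adjusted p = 0.0406). RPL34 fell from 139 and 120 FPKM to 100.2 and 91.5 FPKM (-0.43, adjusted p = 0.0459). No test of the difference between the 2 lists was made. Many ribosomal protein genes have near-identical pseudogenes, so their levels are uncertain where reads were shared.

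MYC, whose product activates many genes of this pathway, measured 77.7 and 83.9 FPKM in NC and 57.7 and 62.7 FPKM in SKA3-KD. MYC fell by 0.42 on the log2 scale (SE 0.0718, adjusted p = 0.0301, limma), and the groups did not overlap. Without any one library the adjusted p was 0.0853 to 0.131. Of the 33 members with a promoter sequence, NOP10, UTP14A and UTP20 had an E-box in the 250 bases upstream. Their log2 fold changes were -0.13, -0.14 and 0.18, and none of them was called. RRP12 and RRP1B had no promoter sequence to search, and E-boxes elsewhere in the genes were not searched for. A part of MYC in the members' changes was not tested.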

How the data were processed

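RNA-seq was performed on 2 NC and 2 SKA3-KD libraries of TU-177 cells. The authors deposited FPKM values per gene (Ensembl identifiers), normalized for gene length and library size. The submitters' processing notes name HISAT2, Bowtie2 2.2.8, StringTie 1.3.1, Cuffdiff 2.1.1 and hg19, without their roles. The strand setting, and which shRNA was used, are not given in the sources used here. FPKM does not correct for differences in composition between libraries. Samples were grouped by their titles.

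Symbols and exon lengths were matched by identifier to GENCODE 29 (GRCh38), whose build differs from hg19, so read numbers are estimates. Library sizes of 9013671 to 11964616 reads were found from the steps of low FPKM values. With these, 60.4% to 67.8% of the 18153 to 18473 genes checked per library came out whole within 0.05 read. Of the 37 members, 0 came out whole in all 4 libraries. The members' read numbers, and the limma voom results that use them, are therefore approximate. Replicates differed by more than sampling noise (chi-square per degree of freedom 3.73 in NC and 3.69 in SKA3-KD). The 12645 genes averaging at least 1 FPKM entered limma 3.58.1 in R 4.3.3 as log2(FPKM + 1), and eBayes was run with a trend of variance on mean. This scale understates changes of low genes. The threshold was 0.05 after Benjamini-Hochberg adjustment. Promoters were from RefSeq (GRCh38.p14).

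The members, role groups and lists were chosen with earlier results of these data known. Members past the threshold were described in full, with up to 2 others per role group with the largest change, NPM1, NCL and FBL, SKA3 and MYC, and of each further list the 2 largest falls and rises past the threshold without overlap. Further values of members were added after they were seen. The alternatives comprised no filter, a pseudocount of 0.1, a minimum of 5 FPKM, median-of-ratios and quantile scaling, eBayes without trend or robust, a replicate block, limma voom on estimated reads, and each library left out. Python 3.11.15 served for other steps. BOP1, AATF, DDX52 and ZNHIT3 were not analysed here, and DDX47 and RPL17 were below the filter. Values are FPKM per library, and errors are SD (n = 2) or the limma SE.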

Additional observations from a re-analysis of the deposited data

How the results depend on the processing

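With all 4 libraries, the 9 alternatives left the median log2 fold change of the 37 members at 0.10 to 0.12 with 28 positive. The number of calls depended on the processing. Without the filter limma called 0 members, 81 of 26504 genes lower and 48 higher, 0 other biogenesis genes and 0 ribosomal proteins. At an unadjusted p below 0.05, 9 members were higher and 1 lower, against 9.21% and 8.81% of the 26504 genes. Other biogenesis genes were then 29 higher and 9 lower, and 27 ribosomal proteins were lower. Without a trend limma called 0 members, 381 of 12645 genes lower and 312 higher. It called 1 other biogenesis gene in each direction and 0 ribosomal proteins (27 lower unadjusted). At an unadjusted p below 0.05, 7 members were then higher and 1 lower, against 15.1% and 14.2% of the 12645 genes. A minimum of 5 FPKM gave 6 members higher (13.6% of all genes tested were then higher and 12.1% lower), 6 other biogenesis genes lower and 16 higher, and 23 ribosomal proteins lower. Limma voom on estimated reads gave 7 members higher (DKC1, BYSL, LAS1L and MYBBP1A added), 1520 genes lower and 1692 higher, 6 and 22 other biogenesis genes, and 43 ribosomal proteins lower. Quantile normalization gave a median of -0.13 over ribosomal proteins and lost LYAR (adjusted p = 0.0518, limma). RRP12, RRP1B and NHP2 were called in 7 of the 9 and LYAR in 6. The causes were not tested. With the replicate number as a block, 5 members were higher (RRP9 and MYBBP1A added; 7.92% of all genes were then higher and 7.63% lower) and 45 ribosomal proteins lower. The difference between replicate 1 and replicate 2 in NC correlated with that in SKA3-KD at r = 0.0973 across all 12645 genes tested. This r was not computed for the members, in which replicate 1 exceeded replicate 2 in 24 of 37 in NC and 28 in SKA3-KD. With 2 pairs only, the numbers were not taken as a pairing.

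Leaving out each library, where the lone sample is assumed to vary like the other group, gave 0 members (5 to 9 higher and 1 lower at an unadjusted p below 0.05), 0 to 135 genes lower and 0 to 46 higher, 0 other biogenesis genes (11 to 24 higher and 4 to 8 lower unadjusted), and 0 ribosomal proteins (11 to 38 lower unadjusted). The members' median was 0.080 to 0.18, the latter without SKA3-KD 2. SKA3 was at -1.14 to -1.04, with an adjusted p of 0.0660 without NC 1 and 0.0600 without NC 2 (limma). Log2 fold changes of 6 uncalled members changed sign, with ranges of -0.074 to 0.025 for GNL3, -0.0095 to 0.025 for FBL, -0.064 to 0.057 for UBTF, -0.037 to 0.17 for NOP14, -0.023 to 0.042 for POLR1B and -0.025 to 0.18 for NOP16. With 2 libraries per group, the number of libraries limits what could be called.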
